A study of Mus musculus with 16 samples.

Results

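The miR-23/27/24 microRNAs were measured by small RNA sequencing in splenic cDC1s, the conventional dendritic cells known for presenting captured antigen to CD8+ T cells. They are the 3′ arm products of 2 paralogous gene clusters, chosen by identifier: miR-23a-3p (MIMAT0000532), miR-27a-3p (MIMAT0000537), miR-24-3p (MIMAT0000219), miR-23b-3p (MIMAT0000125) and miR-27b-3p (MIMAT0000126), 5 of the 853 mature microRNAs in the count table. The 16 libraries formed 4 groups of 4. The labels' genotypes are Xbp1-Ire1 KO (compound-deficient), WT of that line (compound-line wild type), Xbp1 KO (Xbp1-deficient) and WT of that line (Xbp1-line wild type), all from C57BL6 spleen. Compound-deficient cells lack both Ire1a, the endoplasmic reticulum stress sensor with a ribonuclease domain, and Xbp1, the transcription factor whose mRNA that ribonuclease splices. The labels do not give the promoter or Cre behind the deletions, the age of the mice or whether replicates are separate mice. The p-values therefore reflect sample-to-sample spread that may be technical.

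Total counts lay between 175165 and 978134 in compound-deficient libraries, between 332923 and 882108 in compound-line wild-type libraries, between 783372 and 1403393 in Xbp1-deficient libraries and between 400210 and 1103001 in Xbp1-line wild-type libraries. The table holds mature microRNAs and no messenger RNA, so neither the deleted genes nor the defining transcripts of cDC1s were checked in it. MicroRNAs that mark other cell types, and the other arms of these hairpins, were not analysed here, because no table used here ties their identifiers to names.

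In each cluster the hairpins of miR-23, miR-27 and miR-24 lie side by side and are cut from a shared primary transcript. A mature microRNA pairs with messenger RNAs mainly through its seed, the bases near its 5′ end, so that paralogs with the same seed share most targets. The miR-23 family is known to repress glutaminase in human cells, miR-27 is known to repress the adipocyte regulator Pparg, and miR-24 is known to repress cell cycle genes such as MYC in human cells. In mouse haematopoiesis the chromosome 8 cluster is known to favour myeloid over B lymphoid development, and in mouse T cells both clusters are known to limit T helper and regulatory T cell responses.

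The mature sequences show which members can be told apart and which cannot. They are printed 5′ to 3′ from RefSeq (GRCm38.p6), which held 4 of the 5 members, with the seed, bases 2 to 8, in capitals.
miR-23a-3p: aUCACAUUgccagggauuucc
miR-27a-3p: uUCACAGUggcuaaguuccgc
miR-27b-3p: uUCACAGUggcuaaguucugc
miR-24-3p: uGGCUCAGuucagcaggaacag
The mature lengths were 21 bases for miR-23a-3p, miR-27a-3p and miR-27b-3p and 22 bases for miR-24-3p. Counted from 1 at the 5′ end, miR-27a-3p and miR-27b-3p differed by C19U alone and were identical at the other 20 bases, the seed included. The seed of miR-23a-3p and that of the miR-27 pair shared 6 of 7 bases and differed by U7G. The seed of miR-24-3p is shared with none of these 3 and, in the RefSeq table, with 4 mature microRNAs outside the clusters. miR-23b-3p, the chromosome 13 paralog of miR-23a-3p, is known to be near-identical to it. How reads that match both paralogs were assigned is not given in the sources used here.

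The chromosome 8 cluster spans chr8:84208518-84208921 on the plus strand of GRCm38 and holds Mir23a (chr8:84208518-84208592), Mir27a (chr8:84208672-84208758) and Mir24-2 (chr8:84208815-84208921). In GENCODE M21, Mir23a and Mir27a overlapped no other gene. Only the end of Mir24-2 overlapped the long noncoding RNA Gm26532, which starts at chr8:84208920 on the same strand. On the opposite strand Mir24-2 overlapped the microRNA gene Mir3074-2. The chromosome 13 cluster spans chr13:63300484-63301275 on the plus strand and holds Mir23b (chr13:63300484-63300557), Mir27b (chr13:63300712-63300784) and Mir24-1 (chr13:63301208-63301275). All 3 lie within the protein-coding gene 2010111I01Rik on the same strand, with Fancc on the opposite strand, where Mir24-1 also overlapped the microRNA gene Mir3074-1. Mir23b overlapped no annotated exon of 2010111I01Rik or Fancc, and Mir27b and Mir24-1 overlapped annotated exons of 2010111I01Rik but not of Fancc.

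**Figure D1:**
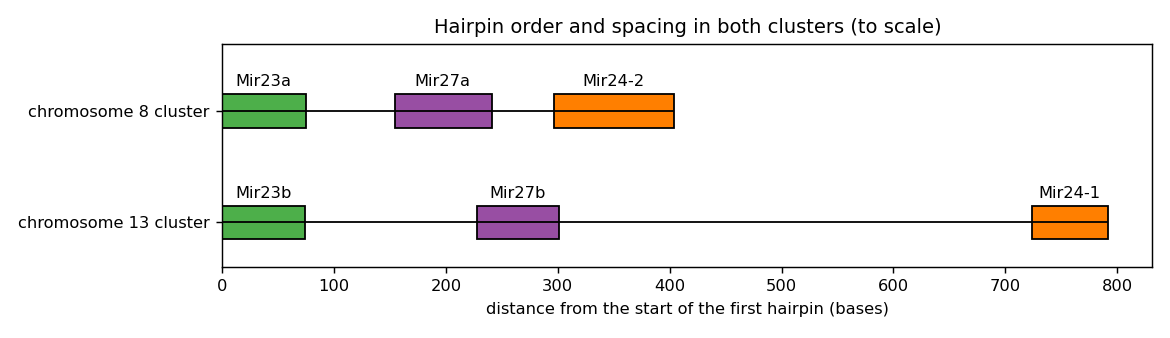
Hairpins of the chromosome 8 cluster (top) and the chromosome 13 cluster (bottom), drawn to scale as distance in bases from the start of the first hairpin, with 1 colour per microRNA family. The order is the same in both clusters, which span 404 and 792 bases, and the last hairpin starts 297 bases from the start of Mir23a and 724 bases from the start of Mir23b.

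Because the miR-27 pair differed most in level, and because miR-24-3p has 2 sources, their hairpins are shown with the mature 3′ arm in capitals (RefSeq, GRCm38.p6, plus strand).
Mir27a: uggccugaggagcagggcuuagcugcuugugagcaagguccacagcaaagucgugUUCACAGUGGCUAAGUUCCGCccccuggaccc
Mir27b: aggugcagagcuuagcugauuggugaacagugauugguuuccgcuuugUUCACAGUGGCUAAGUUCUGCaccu
Mir24-2: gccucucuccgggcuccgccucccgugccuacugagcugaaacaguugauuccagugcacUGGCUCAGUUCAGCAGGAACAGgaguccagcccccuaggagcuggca
Mir24-1: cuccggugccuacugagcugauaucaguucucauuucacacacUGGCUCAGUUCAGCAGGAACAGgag
The capitals in Mir24-2 and Mir24-1 are identical, so the count of miR-24-3p joins both clusters and cannot be split between them.

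One member dominated the group. miR-27b-3p was the highest of the 5 in 16 of 16 libraries and ranked 19 of the 255 tested microRNAs by mean level. It took 94.8% ± 0.962 of the members' counts in compound-deficient libraries, 95.05% ± 1.13 in compound-line wild type, 95.2% ± 0.562 in Xbp1-deficient libraries and 95.8% ± 0.937 in Xbp1-line wild type (SD, n = 4 each). The 5 members together took between 0.485% and 0.986% of a library's counts. Levels are given as CPM, a count divided by the library size after scaling by the trimmed mean of M-values. Each read stands for 1 mature microRNA of nearly equal length, so levels were not divided by length; preferences of the adapter ligation between microRNAs were not tested.

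miR-27b-3p stood at 9127, 4819, 8442 and 8770 CPM in compound-deficient replicates 1 to 4, against 5109, 7145, 8803 and 5283 CPM in compound-line wild-type replicates 1 to 4. It stood at 7854, 8729, 9298 and 6544 CPM in Xbp1-deficient replicates 1 to 4, against 8836, 8292, 7035 and 9014 CPM in Xbp1-line wild-type replicates 4, 5, 6 and 8. The groups overlapped in both lines, and the lowest library was compound-deficient replicate 2.

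miR-27a-3p, the paralog with the same seed, was far lower in every library. It stood at 229.7, 99.9, 195 and 195 CPM in compound-deficient replicates 1 to 4, against 116, 138, 155 and 115 CPM in compound-line wild-type replicates 1 to 4. It stood at 249.8, 216, 259 and 141 CPM in Xbp1-deficient replicates 1 to 4, against 182, 175, 159.9 and 126 CPM in Xbp1-line wild-type replicates 4, 5, 6 and 8. All deficient libraries but 1 in each line exceeded the highest wild-type library of that line. The exceptions were compound-deficient replicate 2, below all 4 wild-type libraries, and Xbp1-deficient replicate 4, among them. The ratio of miR-27b-3p to miR-27a-3p, which needs no scaling between libraries, averaged 44.1 ± 3.52 in compound-deficient libraries, against 49.6 ± 5.90 in compound-line wild type (SD, n = 4 each). It averaged 38.6 ± 6.46 in Xbp1-deficient libraries, against 52.9 ± 12.7 in Xbp1-line wild type, where replicate 8 reached 71.6 and the other 3 lay between 44.0 and 48.5. Over all 16 libraries it ran from 31.4 to 71.6, with overlap between the groups of each line, so that the difference in level within the pair was larger than its spread in every group.

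miR-23a-3p, on chromosome 8, stood at 176, 144, 179.8 and 111 CPM in compound-deficient replicates 1 to 4, against 138, 131, 169.8 and 76.8 CPM in compound-line wild-type replicates 1 to 4. It stood at 147, 121, 122 and 96.4 CPM in Xbp1-deficient replicates 1 to 4, against 158, 141, 118 and 84.7 CPM in Xbp1-line wild-type replicates 4, 5, 6 and 8. The groups overlapped in both lines, and the lowest library of each group was also its shallowest.

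miR-23b-3p, on chromosome 13, stood at 62.3, 47.2, 67.9 and 15.8 CPM in compound-deficient replicates 1 to 4, against 59.6, 56.9, 54.8 and 23.6 CPM in compound-line wild-type replicates 1 to 4. It stood at 46.3, 38.4, 38.5 and 32.1 CPM in Xbp1-deficient replicates 1 to 4, against 43.4, 51.4, 32.5 and 16.9 CPM in Xbp1-line wild-type replicates 4, 5, 6 and 8. Its lowest values rested on 3 counts in compound-deficient replicate 4 (exact 95% interval 3.27 to 46.3 CPM), 7 counts in Xbp1-line wild-type replicate 8 and 8 counts in compound-line wild-type replicate 4. Intervals from counts cover counting error only, since the reads carry no molecular identifiers that the sources name. miR-23a-3p exceeded miR-23b-3p in 16 of 16 libraries, at a ratio of 3.88 ± 2.08 in compound-deficient libraries, 2.74 ± 0.502 in compound-line wild type, 3.12 ± 0.0795 in Xbp1-deficient libraries and 3.76 ± 0.928 in Xbp1-line wild type (SD, n = 4 each). The paralog on chromosome 8 was thus the higher one in the miR-23 pair and the lower one in the miR-27 pair.

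miR-24-3p, which both clusters encode, was the lowest member by mean level. It stood at 38.6, 22.2, 42.2 and 26.4 CPM in compound-deficient replicates 1 to 4, against 43.3, 39.7, 34.4 and 0 CPM in compound-line wild-type replicates 1 to 4. It stood at 28.0, 42.6, 34.5 and 33.5 CPM in Xbp1-deficient replicates 1 to 4, against 28.3, 34.0, 42.9 and 29.0 CPM in Xbp1-line wild-type replicates 4, 5, 6 and 8. The groups overlapped, and compound-line wild-type replicate 4 stood apart with 0 of 332923 counts, which allows up to 3 counts or 8.86 CPM, whereas the other 3 libraries of its group held 16, 23 and 32 counts.

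**Figure D2:**
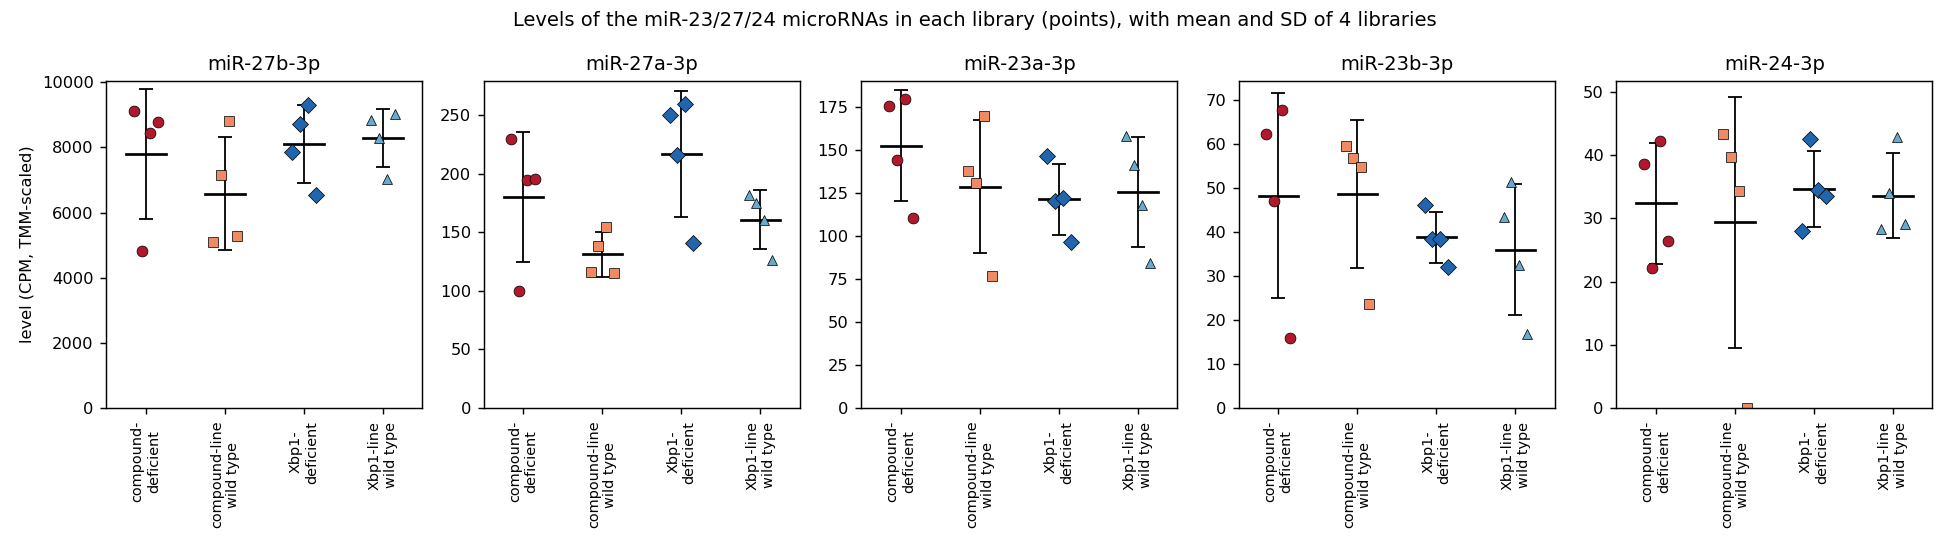
Level of each member in CPM (vertical axes from 0, a scale of its own per panel) in the 4 libraries of each group (points), with bars for the mean and whiskers for the SD. miR-27b-3p lies between 4819 and 9298 CPM and the other 4 members between 0 and 259 CPM, and the groups of each line overlap in every panel.

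By mean level the order was miR-27b-3p, miR-27a-3p, miR-23a-3p, miR-23b-3p and miR-24-3p. miR-27b-3p was separated from miR-27a-3p, and miR-23a-3p from miR-23b-3p, without overlap in each of the 4 groups. miR-27a-3p and miR-23a-3p overlapped in all 4 groups, with miR-27a-3p higher in 13 of 16 libraries, and their ratio averaged 1.21 ± 0.446 in compound-deficient libraries, 1.08 ± 0.295 in compound-line wild type, 1.77 ± 0.276 in Xbp1-deficient libraries and 1.31 ± 0.145 in Xbp1-line wild type (SD, n = 4 each). miR-23b-3p and miR-24-3p also overlapped in all 4 groups, with miR-23b-3p higher in 11 of 16 libraries. Within libraries, miR-27a-3p exceeded miR-23a-3p in 4 of 4 Xbp1-deficient and 4 of 4 Xbp1-line wild-type libraries, against 3 of 4 compound-deficient and 2 of 4 compound-line wild-type libraries.

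Loss of Xbp1 was addressed by setting Xbp1-deficient cells against the wild type of their line. None of the 5 members was called by edgeR's quasi-likelihood test at an adjusted p under 0.05, where 2.35% of the 255 tested microRNAs were (0.392% higher and 1.96% lower), and none had an unadjusted p under 0.05. All 5 had passed the filter on low counts. miR-27a-3p averaged 216 ± 53.9 CPM in Xbp1-deficient libraries and 161 ± 25.05 CPM in wild type (SD, n = 4 each), which is 0.42 on the log2 scale (95% interval −0.09 to 0.94; SE 0.25) with an edgeR adjusted p of 0.458. miR-27b-3p averaged 8106 ± 1199 CPM in Xbp1-deficient libraries and 8294 ± 894 CPM in wild type, which is −0.03 on the log2 scale (95% interval −0.44 to 0.38; SE 0.20). The log2 fold changes were −0.06 (interval −0.59 to 0.47) for miR-23a-3p, 0.07 (interval −0.73 to 0.88) for miR-23b-3p and 0.04 (interval −0.99 to 1.07) for miR-24-3p. The members' median was 0.04, against −0.06 over all 255 microRNAs. None of the 5 had groups without overlap, which held for 11.8% of those tested. The calls over all microRNAs were 1 higher and 5 lower, against 2 and 5 on DESeq2 size factors and 2 and 3 on upper-quartile scaling.

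Loss of Ire1a and Xbp1 together was addressed within the compound line. Again 0 of 5 members were called by edgeR, where 5.88% of the tested microRNAs were (3.53% higher and 2.35% lower), and none had an unadjusted p under 0.05. miR-27a-3p averaged 179.9 ± 55.8 CPM in compound-deficient libraries and 131 ± 18.9 CPM in wild type (SD, n = 4 each), which is 0.45 on the log2 scale (95% interval −0.08 to 0.99; SE 0.26) with an edgeR adjusted p of 0.360. miR-27b-3p averaged 7789 ± 2000 CPM in compound-deficient libraries and 6585 ± 1742 CPM in wild type, which is 0.24 on the log2 scale (95% interval −0.17 to 0.65; SE 0.20). The log2 fold changes were 0.25 (interval −0.30 to 0.80) for miR-23a-3p, 0.04 (interval −0.78 to 0.87) for miR-23b-3p and 0.14 (interval −0.96 to 1.25) for miR-24-3p. The last was −0.29 without compound-line wild-type replicate 4, the library with 0 counts. The members' median was 0.24, against 0.04 over all tested microRNAs, and none of the 5 had groups without overlap, against 9.8% of those tested. Over all microRNAs 9 calls were higher and 6 lower, against 8 and 11 on total counts alone and 3 and 21 on upper-quartile scaling.

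Whether compound loss moved a member by another amount than loss of Xbp1 was tested as the difference of both changes, compound minus Xbp1 line. edgeR called none of the 5 members and 0% of all tested microRNAs, with 26 of 255 at an unadjusted p under 0.05, none of them a member; DESeq2 and limma called 0 as well. For miR-27a-3p, whose log2 fold changes were 0.45 and 0.42, the difference was 0.03 (SE 0.35, interval −0.71 to 0.77). For miR-27b-3p it was 0.27 (SE 0.28, interval −0.31 to 0.86) and for miR-23a-3p 0.31 (SE 0.36, interval −0.45 to 1.07). The intervals of miR-23b-3p, at −0.03 (−1.19 to 1.13), and of miR-24-3p, at 0.10 (−1.41 to 1.61), were wider than 2-fold in both directions.

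The deficient genotypes come from separate lines, so line and genotype cannot be told apart between them. Here edgeR called 7.45% of tested microRNAs (5.1% higher and 2.35% lower) and none of the 5 members. The split of all calls depended on the scaling, with 13 higher and 6 lower here, 14 higher and 1 lower on total counts alone, 13 higher and 12 lower on DESeq2 size factors and 4 higher and 22 lower on upper-quartile scaling. The count of 19 calls also ranged from 0, without Xbp1-deficient replicate 2, to 28, without compound-deficient replicate 1, and was 0 with limma and 3 with adjustment for depth. The log2 fold changes of compound-deficient over Xbp1-deficient libraries were 0.35 (interval −0.19 to 0.89) for miR-23a-3p and 0.38 (interval −0.43 to 1.2) for miR-23b-3p. They were −0.26 (interval −0.78 to 0.26) for miR-27a-3p, −0.06 (interval −0.47 to 0.35) for miR-27b-3p and −0.06 (interval −1.12 to 1.01) for miR-24-3p. The smallest edgeR adjusted p among the members was 0.518, for miR-23a-3p, and 11.8% of tested microRNAs but none of the 5 had groups without overlap.

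Between the wild types, compound line over Xbp1 line, edgeR called 0% of the tested microRNAs, with 24 at an unadjusted p under 0.05, none of them a member. DESeq2 called 3 microRNAs and limma 0, in neither case a member. miR-27b-3p, averaging 6585 ± 1742 CPM in wild type of the compound line and 8294 ± 894 CPM in that of the Xbp1 line (SD, n = 4 each), gave a log2 difference of −0.33 (SE 0.20, interval −0.74 to 0.08, edgeR adjusted p 0.602). The values were −0.29 (interval −0.82 to 0.24) for miR-27a-3p, 0.04 (interval −0.50 to 0.58) for miR-23a-3p, 0.41 (interval −0.41 to 1.23) for miR-23b-3p and −0.16 (interval −1.23 to 0.91) for miR-24-3p. Groups without overlap were found for 4.31% of tested microRNAs and for none of the 5.

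**Figure D3:**
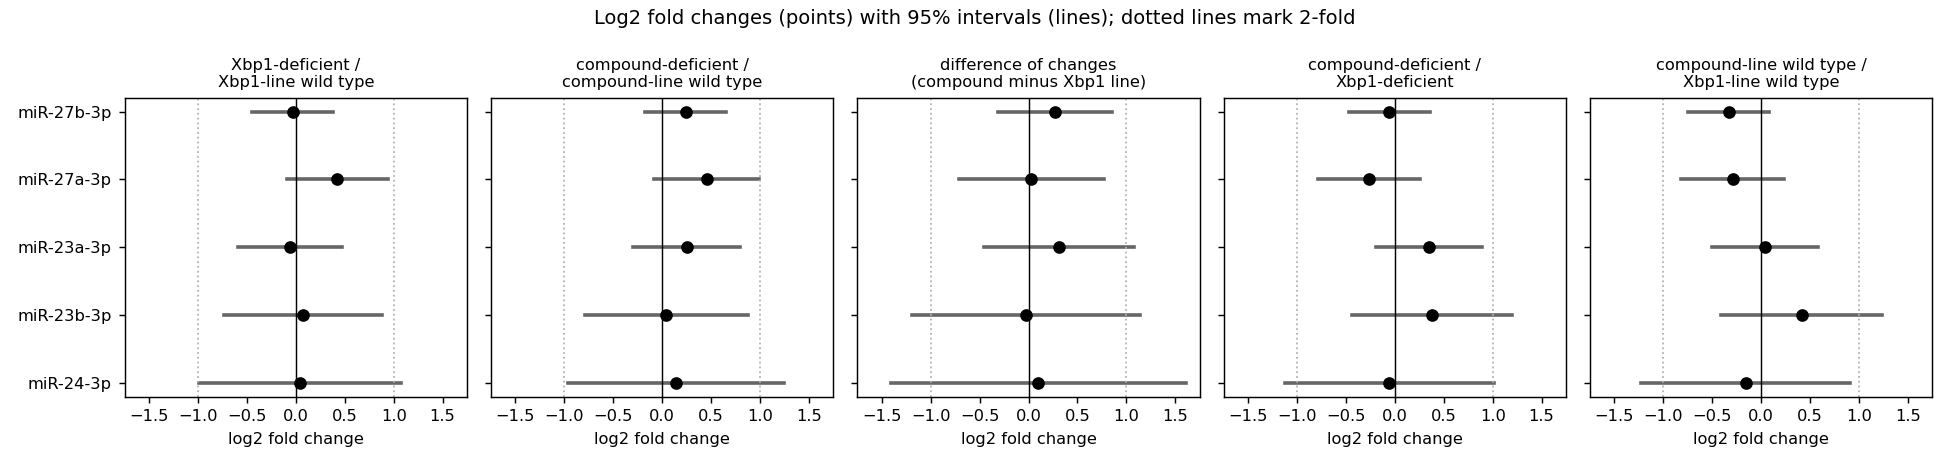
Log2 fold change (point) and 95% interval (line) of each member in the 5 comparisons, with dotted lines at 2-fold. All 25 intervals hold 0, and 16 of them lie inside 2-fold in both directions, including all 5 of miR-27b-3p, all 5 of miR-27a-3p and none of miR-24-3p.

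The intervals show what these libraries could resolve. For miR-27b-3p and miR-27a-3p all 5 intervals lay inside a 2-fold change in both directions, so that such a change lay outside the 95% intervals. For miR-23a-3p this held for 4 of 5 comparisons, for miR-23b-3p for 2 and for miR-24-3p for 0. No interval of miR-24-3p thus excluded 2-fold changes in both directions. The upper limits of miR-27a-3p came close to 2-fold within lines, at 1.92-fold in the Xbp1 line and 1.99-fold in the compound line. With single libraries left out, its log2 value ranged from 0.34 to 0.61 in the Xbp1 line and from 0.22 to 0.59 in the compound line. miR-24-3p and miR-23b-3p each had at least 10 counts in 13 of 16 libraries only, whereas miR-27b-3p had at least 1661 counts in each.

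Across the 16 libraries the members' levels were compared pairwise, between paralogs of a family and between neighbours in a cluster. Log2 CPM, with a prior count of 1, of miR-23a-3p and miR-23b-3p, on different chromosomes, correlated with Pearson's r of 0.83 (two-sided permutation p 0.00017, adjusted 0.00255 over 15 relations) and Spearman's rho of 0.85 (permutation p 0.00015, adjusted 0.00225). The r was 0.74 without the 2 libraries farthest from the median of miR-23a-3p, 0.79 within the compound line and 0.89 within the Xbp1 line. miR-27a-3p and miR-27b-3p correlated with an r of 0.77 (permutation p 0.0004, adjusted 0.003) and a rho of 0.66 (permutation p 0.00653, adjusted 0.0326), and r was 0.67 without the 2 libraries farthest from the median of miR-27a-3p. Within lines this r was 0.93 in the compound line and 0.37 in the Xbp1 line. The permutations took no account of group or depth. With group means removed, r was 0.89 for the miR-23 pair and 0.80 for the miR-27 pair. On the same deviations, total count gave an r of 0.81 with miR-23a-3p and 0.82 with miR-23b-3p. With miR-27a-3p it was 0.54 and with miR-27b-3p 0.38. The part of depth in the paralogs' correlations was not tested.

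For the neighbours within a cluster r was lower in value. miR-23a-3p and miR-27a-3p, whose hairpins are neighbours on chromosome 8, gave an r of 0.38 (permutation p 0.144, adjusted 0.197), a rho of 0.33 (permutation p 0.213, adjusted 0.457) and an r of 0.11 without the 2 farthest libraries. miR-23b-3p and miR-27b-3p, neighbours on chromosome 13, gave an r of −0.06 (permutation p 0.838), a rho of −0.03 (permutation p 0.908) and an r of 0.28 without the 2 farthest libraries. Within lines the r of the chromosome 8 pair was 0.44 in the compound line and 0.65 in the Xbp1 line, and that of the chromosome 13 pair was 0.06 in the compound line and −0.03 in the Xbp1 line. After removal of group means, r was 0.52 for the chromosome 8 pair and 0.06 for the chromosome 13 pair. The difference between family and cluster correlations was not tested. The paralogs of a family are near-identical in sequence and may share reads, and the part of this in their correlation was not tested. The r of 0.56 between miR-23a-3p and miR-24-3p (permutation p 0.0182, adjusted 0.0682; rho 0.21, permutation p 0.423, adjusted 0.634) rested on compound-line wild-type replicate 4 and Xbp1-line wild-type replicate 8, as it was 0.04 without these.

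**Figure D4:**
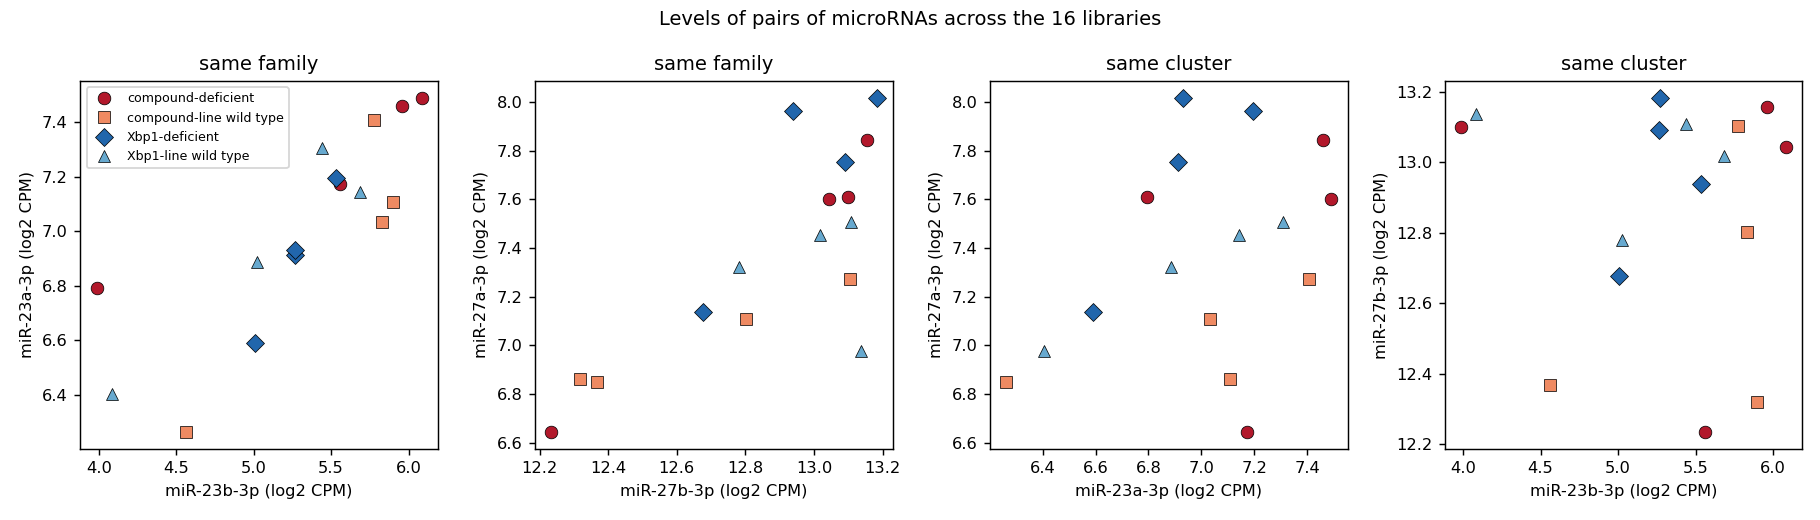
Log2 CPM of member pairs in the 16 libraries (points, coloured by group), for paralogs of 1 family on the left and hairpin neighbours of 1 cluster on the right. The family pairs have Pearson's r of 0.83 and 0.77 and the cluster pairs 0.38 and −0.06.

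Library depth moved with some of these levels. In all 4 groups the library of lowest total count also had the lowest miR-23a-3p and the lowest miR-23b-3p. For miR-27a-3p this held in 3 groups, and for miR-27b-3p and miR-24-3p in 1. Log2 total count and miR-23b-3p gave an r of 0.49 (permutation p 0.0547, adjusted 0.164) and a rho of 0.23 (permutation p 0.398, adjusted 0.634) over 16 libraries, and the r was 0.07 without the 2 libraries farthest from the median total. Within lines the same r was 0.78 in the compound line and 0.90 in the Xbp1 line. For miR-23a-3p the r was 0.41 over all libraries (permutation p 0.111, adjusted 0.197), 0.69 within the compound line and 0.79 within the Xbp1 line, and 0.21 without the 2 farthest libraries, with a rho of 0.44 (permutation p 0.0928, adjusted 0.232). For miR-27a-3p the r was 0.59 (permutation p 0.0164, adjusted 0.0682) and the rho 0.70 (permutation p 0.00384, adjusted 0.0288), with 0.30 within the compound line, 0.84 within the Xbp1 line and 0.85 without the 2 farthest libraries. For miR-27b-3p the r was 0.46 (permutation p 0.0721, adjusted 0.180) and the rho 0.51 (permutation p 0.0456, adjusted 0.171), with 0.38 within the compound line, 0.15 within the Xbp1 line and 0.66 without the 2 farthest libraries. For miR-24-3p the r was 0.35 (permutation p 0.120, adjusted 0.197) and the rho 0.15 (permutation p 0.581, adjusted 0.726). Both settings on depth were added once the data had been seen. In a fit that adjusted for log2 total, no member was called, and the difference between the deficient genotypes was 0.82 for miR-23a-3p and 1.04 for miR-23b-3p, with edgeR adjusted p of 0.0952 and 0.200. The wild types, compound line over Xbp1 line, differed there by 0.32 for miR-23a-3p and 0.92 for miR-23b-3p. Within lines, the change of miR-23a-3p in that fit was −0.21 in the Xbp1 line and 0.29 in the compound line. That of miR-23b-3p was −0.13 in the Xbp1 line and 0.0018 in the compound line. Total counts also differed between the groups, so depth and group were not separate in that fit. Without the shallowest library of each group, no member was called either. The differences between the deficient genotypes were then 0.27 for miR-23a-3p and 0.44 for miR-23b-3p, with edgeR adjusted p of 0.546 and 0.479.

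**Figure D5:**
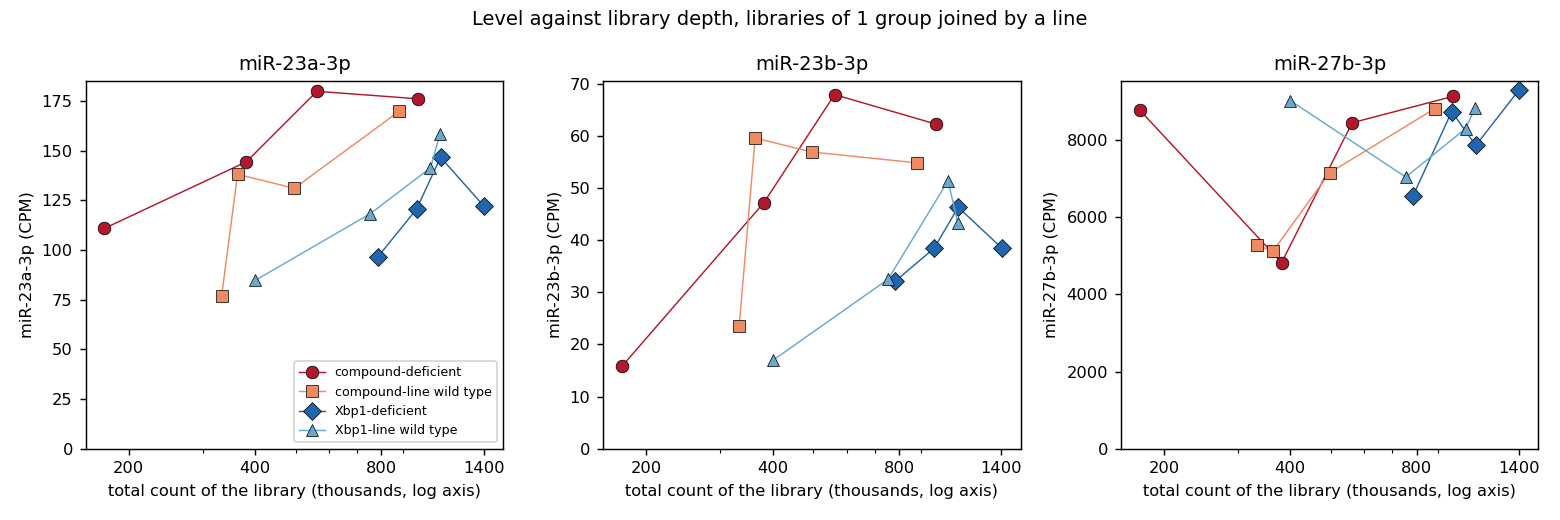
Level in CPM (vertical axes from 0) against the total count of the library (reads counted, log axis), with the 4 libraries of each group joined by a line. The leftmost point of each line is the lowest of its group in all 4 groups for miR-23a-3p and for miR-23b-3p.

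Outside the family, likeness of pattern was taken as Pearson's r of log2 CPM over the 16 libraries with each of the 250 other tested microRNAs, as a description without a p. The microRNA most like miR-27a-3p was MIMAT0000652, with an r of 0.91 and a rho of 0.89. That most like miR-27b-3p was MIMAT0017040, with an r of 0.78 and a rho of 0.70, and MIMAT0000652 came next with an r of 0.76. For miR-23a-3p and miR-23b-3p the highest r with a microRNA outside the clusters was 0.78 and 0.70, below the 0.83 between the pair. For miR-27a-3p and miR-27b-3p it was 0.91 and 0.78, above the 0.77 between that pair. For miR-24-3p, with 1 library at 0 counts, the highest r was 0.90 and its rho 0.09.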

How the data were processed

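Small RNA was sequenced from 5000 to 50000 sorted cDC1s per sample, per the labels' protocols. The authors deposited read counts per mature microRNA and log2 values of 473 microRNAs. These equalled log2 of the count plus a fixed small offset, shifted by a constant per library, to within 1.01e-13, and the constants matched recomputed trimmed-mean library sizes to within 2.73e-15. Per the submitters' processing notes, the tools included Bowtie 1.1.2, limma 3.42.2, cutadapt 1.8.1 and FastQC 0.11.3; how reads matching several microRNAs were counted is not stated. From the counts, edgeR 4.0.16 (R 4.3.3) fitted all 16 libraries with trimmed-mean scaling, after a filter with a count minimum of 10 kept 255 of 853 microRNAs, and quasi-likelihood tests were adjusted by Benjamini-Hochberg over these 255, with a threshold of 0.05. The code was tested on simulated data. DESeq2 1.42.0 and limma 3.58.1 were alternatives, besides scalings, filters and left-out libraries. Correlations used 100000 permutations. The text names the 5 members and the microRNAs most like them; the rest of the naming rule (other arms, shared seeds, marker microRNAs) was not applied, since identifiers had no names. Members and lists were chosen with earlier results of these data known. Intervals on counts cover counting error only.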

Additional observations from a re-analysis of the deposited data

Results flagged for a closer look

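In 36 groups of 4 values examined, 4 had a library that stood apart from the other 3 by more than Dixon's 95% critical value. Chance gives about 1 in 20 such groups. Levels entered as log2 CPM with a prior count of 1, and ratios as log2. The place of a library with 0 counts on that scale depends on the prior count. miR-24-3p was at 0 CPM in compound-line wild-type replicate 4, against 34.4 to 43.3 CPM in the other 3 libraries of its group. In the same library miR-23b-3p was at 23.6 CPM, against 54.8 to 59.6 CPM in the others. Compound-deficient replicate 2 held miR-27b-3p at 4819 CPM, and the other 3 libraries of that group held it at 8442 to 9127 CPM. The ratio of miR-23a-3p to miR-23b-3p was 7 in compound-deficient replicate 4, from 21 and 3 counts, against 2.65 to 3.06 in the others.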

How the results depend on the processing

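Under 495 alternative values, none of the 5 members was called in any comparison, and the smallest adjusted p was 0.0952. Of these, 87 gave the opposite sign to the value reported, whose size was up to 0.42. That largest value, of miR-27a-3p in the Xbp1 line, turned only where paralog reads were summed. There the sum of the pair stood in for the member, and each sum was counted under both names. Why the other signs turned was not tested. miR-24-3p and miR-23b-3p had at least 10 counts in 13 of 16 libraries each.

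On DESeq2 size factors, signs turned at 0.0028 for miR-27b-3p in the Xbp1 line and −0.021 for miR-27a-3p in the difference of both changes. On total counts alone they turned at −0.061 for miR-24-3p and −0.029 for miR-23b-3p in the Xbp1 line, −0.10 for miR-23b-3p in the compound line and 0.018 for miR-27b-3p between deficient genotypes. Upper-quartile scaling moved the median of all microRNAs to −0.24 in the compound line and −0.36 in the difference. It gave 0.047 for miR-23a-3p and 0.080 for miR-27b-3p in the Xbp1 line. In the compound line it called 24 microRNAs and gave −0.015 for miR-23a-3p, −0.14 for miR-24-3p, −0.23 for miR-23b-3p and −0.039 for miR-27b-3p. In the difference it called 3 and gave −0.062 for miR-23a-3p, −0.36 for miR-27a-3p, −0.29 for miR-24-3p and −0.12 for miR-27b-3p.

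Without the filter, 15 microRNAs were called in the Xbp1 line, 2 in the difference and 14 between wild types, with 0.0023 for miR-27b-3p in the Xbp1 line, −0.036 for miR-27a-3p in the difference and −0.065 for miR-23a-3p between wild types. DESeq2 called 17 in the Xbp1 line, 30 between deficient genotypes and 3 between wild types, with 0.0029 for miR-27b-3p in the Xbp1 line and −0.019 for miR-27a-3p in the difference. limma on the authors' log2 values called 3 in the Xbp1 line, 1 in the compound line and 0 between deficient genotypes, with 0.045 for miR-23a-3p and 0.036 for miR-27b-3p in the Xbp1 line, −0.091 for miR-23b-3p in the compound line and −0.082 for miR-27a-3p in the difference. With it miR-24-3p kept its sign but was at 0.90 in the compound line, 0.78 in the difference and −0.93 between wild types. Fits of the compared groups alone called 11 in the Xbp1 line, 9 in the compound line, 8 between deficient genotypes and 2 between wild types, with −0.011 for miR-23b-3p in the compound line. Summing paralog reads gave −0.028 for the miR-27 pair and −0.031 for the miR-23 pair in the Xbp1 line, and 0.16 for the miR-23 pair in the difference.

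Replicate numbers are shared within the compound line and between deficient genotypes. Deviations of same-numbered libraries correlated with r of 0.11, −0.26, 0.26 and 0.01 in the compound line and 0.04, −0.07, 0.10 and 0.08 between deficient genotypes. In each, 1 of 4 numbers was best matched by its own. So few correlations cannot show whether same-numbered samples share more than a number. The replicate block gave 4 calls in the compound line, with −0.091 for miR-23b-3p, and 19 between deficient genotypes.

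2 settings were chosen after seeing the data. Adjusting for depth (log2 total) gave −0.061 for miR-24-3p and −0.13 for miR-23b-3p in the Xbp1 line, 0.13 for miR-23b-3p in the difference, and between deficient genotypes 3 calls, 0.067 for miR-27a-3p, 0.21 for miR-24-3p and 0.14 for miR-27b-3p. Leaving out the shallowest library of each group gave −0.030 for miR-23b-3p and 0.13 for miR-27b-3p in the Xbp1 line, −0.22 for miR-24-3p and −0.0026 for miR-23b-3p in the compound line, −0.22 for miR-27a-3p, −0.27 for miR-24-3p, 0.028 for miR-23b-3p and −0.11 for miR-27b-3p in the difference, 12 calls between deficient genotypes, and 2 calls and 0.16 for miR-24-3p between wild types.

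Leaving out each library in turn, calls ranged from 2 to 8 in the Xbp1 line, 6 to 20 in the compound line, 0 to 28 between deficient genotypes and 0 to 2 between wild types. Between deficient genotypes, calls were 4, 0 and 9 without Xbp1-deficient replicate 1, 2 or 3, and 4, 1 and 12 without compound-deficient replicate 2, 3 or 4. In the compound line they were 6 without compound-deficient replicate 3 and 7 without wild-type replicate 2. In the Xbp1 line they were 3 and 2 without Xbp1-deficient replicate 1 or 3, and 3 without wild-type replicate 6 or 8, and between wild types 2 without Xbp1-line wild-type replicate 6. The members' log2 values ranged in the Xbp1 line from −0.18 to 0.11 for miR-23a-3p, −0.10 to 0.094 for miR-27b-3p, −0.069 to 0.20 for miR-24-3p and −0.12 to 0.34 for miR-23b-3p. In the compound line they ranged from −0.29 to 0.27 for miR-24-3p and −0.24 to 0.20 for miR-23b-3p. In the difference they ranged from −0.23 to 0.14 for miR-27a-3p, −0.34 to 0.18 for miR-24-3p and −0.37 to 0.12 for miR-23b-3p. Between deficient genotypes miR-27b-3p ranged from −0.25 to 0.027. Between wild types miR-23a-3p ranged from −0.12 to 0.20 and miR-24-3p from −0.34 to 0.20.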
